A study of Mus musculus with 6 samples.

Results

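Immediate early genes are genes that cells switch on within minutes of a stimulus, without making new protein first. The 10 studied here, Fos, Fosb, Jun, Junb, Egr1, Egr3, Arc, Npas4, Nr4a1 and Ier2, were taken by symbol from the 24411 genes of the count tables. Each symbol matched 1 row, and all 10 passed the filter on low counts that left 15519 genes for testing. RNA had been sequenced in bulk from the mouse cerebellum at postnatal day 18, in 3 libraries from wild-type (WT) animals and 3 from animals with the genotype Atoh7 Remote Enhancer KO (KO), which lack a distant regulatory element of the proneural gene Atoh7. The labels name no strain, sex, treatment or allele besides this one, and call the replicates independent without saying that each is a separate animal. The p-values therefore measure the spread between these libraries.

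In neurons, calcium entry and growth factor signals reach kinases such as CaMKIV, ERK and RSK, which act on CREB, SRF with its ELK partners, and MEF2. These factors are already present, so the immediate early genes respond at once, and their short-lived mRNAs fall again soon after. Most of the 10 encode transcription factors that pass the signal on to later genes, while Arc acts at the synapse. In tissue they are widely read as a sign of recent activity, and handling of the animal and dissection can induce them as well. In bulk RNA, fewer cells that express a gene and less RNA per cell cannot be told apart.

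Some libraries stood apart before any of these genes were considered. In WT replicate 3 the ribosomal RNA precursor Rn45s took 63.2% of gene reads, where it took 1.28% to 3.04% elsewhere. Reads on the remaining genes thus numbered 6015125 in this library and at least 26021719 in each of the others. Reads outside genes made up 32.0% to 38.5% of the WT and 17.1% to 17.6% of the KO libraries. WT replicate 1 was the only library with a female pattern, with 31134 reads of Xist against at most 10 elsewhere. The tissue entry of the labels reads retina, while Calb1 and Gabra6, genes of Purkinje and granule cells, were measured in every library. The fits without single libraries, without Rn45s and with a covariate for reads outside genes show only how far the values below change. Shares of reads outside genes did not overlap between WT and KO, so these fits cannot separate that difference from genotype. They set no limit on its part in the results below.

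The promoters of 6 of the 10 genes (Fos, Fosb, Jun, Junb, Npas4 and Nr4a1) were found in the RefSeq table for GRCm38.p6. The 250 bases before the transcript start are printed for the AP-1 genes Junb, Jun, Fosb and Fos, which had the smallest p among the 6, and for Nr4a1, chosen after its values were seen because its levels moved with those of Fos. Capitals mark matches to the core of the cAMP response element bound by CREB (TGACG, or CGTCA where it lies on the other strand) and to a TATA box (TATAA, gene strand only). All run 5′ to 3′ on the strand of the gene.
Fos, chr12:85473640-85473889, plus strand: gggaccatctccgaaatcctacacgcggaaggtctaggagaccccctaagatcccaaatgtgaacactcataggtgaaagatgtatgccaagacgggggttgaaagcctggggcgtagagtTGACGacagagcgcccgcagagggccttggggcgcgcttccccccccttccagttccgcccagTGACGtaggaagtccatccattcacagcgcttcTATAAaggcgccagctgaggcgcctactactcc
Fosb, chr7:19310046-19310295, minus strand: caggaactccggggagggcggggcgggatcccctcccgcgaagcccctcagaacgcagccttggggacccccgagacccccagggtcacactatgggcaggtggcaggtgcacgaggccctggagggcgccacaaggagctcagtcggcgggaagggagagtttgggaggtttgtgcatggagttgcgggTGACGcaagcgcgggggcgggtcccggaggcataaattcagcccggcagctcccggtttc
Jun, chr4:95052223-95052472, minus strand: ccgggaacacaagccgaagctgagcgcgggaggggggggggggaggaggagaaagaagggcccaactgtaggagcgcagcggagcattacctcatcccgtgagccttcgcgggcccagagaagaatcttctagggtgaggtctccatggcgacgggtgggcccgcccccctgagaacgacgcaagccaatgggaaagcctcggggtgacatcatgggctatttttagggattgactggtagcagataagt
Junb, chr8:84978749-84978998, minus strand: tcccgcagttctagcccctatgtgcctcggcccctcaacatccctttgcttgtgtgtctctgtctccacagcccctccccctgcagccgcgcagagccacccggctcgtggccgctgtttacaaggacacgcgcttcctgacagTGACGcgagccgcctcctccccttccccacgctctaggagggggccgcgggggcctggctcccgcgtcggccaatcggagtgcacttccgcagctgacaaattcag
Nr4a1, chr15:101266596-101266845, plus strand: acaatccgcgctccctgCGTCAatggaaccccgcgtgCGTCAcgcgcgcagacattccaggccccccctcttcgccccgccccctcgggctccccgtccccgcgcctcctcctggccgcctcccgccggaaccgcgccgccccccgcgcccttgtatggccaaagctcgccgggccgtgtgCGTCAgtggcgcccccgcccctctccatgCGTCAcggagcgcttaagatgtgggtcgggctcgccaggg

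The core of the cAMP response element occurred 4 times in the window of Nr4a1, 2 times each in those of Fos and Npas4, and 1 time each in those of Fosb and Junb. It did not occur in the window of Jun. Of all 32851 promoter windows of this length in the table, 17.8% held it. The full palindrome TGACGTCA was in none of the 6 windows and in 1.55% of all. The AP-1 site TGANTCA, bound by Fos-Jun pairs, was in none of the 6 and in 6.75% of all, and the CArG box bound by SRF in none and in 1.47%. A TATA box was in 2 of the 6, Fos and Npas4, and in 16.0% of all. All motifs but the TATA box were searched on both strands, and the palindrome holds the core within it. These are matches of letters and show no binding. Bases further upstream, and the promoters of Egr1, Egr3, Arc and Ier2, were not searched. A motif found in none of the 6 windows may thus lie outside them.

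Levels between genes were compared per length, as RPKM (reads per kilobase of the longest protein-coding transcript and 1e+06 scaled reads). Jun, a partner of Fos in the AP-1 dimer, had the highest level, at 15.3 RPKM on average over the 6 libraries (range 14.4 to 16.6). Fos followed at 13.0 (9.72 to 17.1) and Nr4a1, an orphan nuclear receptor also called Nur77, at 8.66 (5.70 to 9.97). Arc, a protein of dendrites that regulates AMPA receptor traffic, stood at 7.28, Egr1, a zinc finger factor also called Zif268, at 6.85, Ier2, a small nuclear protein, at 5.82, and Junb, a further AP-1 subunit, at 5.33. The level of Npas4, a bHLH-PAS factor induced by calcium in neurons, was 1.34. Egr3, a relative of Egr1, was at 0.546 and Fosb, a relative of Fos, at 0.411. With this length the set thus fell into 7 genes above 5 RPKM on average and 3 below 1.5.

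Neighbours in this order were not all separated. Junb was above Npas4, Npas4 above Egr3, and Fos above Nr4a1 in 6 of 6 libraries. Jun was above Fos, and Egr3 above Fosb, in 5 of 6. The order held in 4 of 6 libraries for Nr4a1 over Arc, Egr1 over Ier2 and Ier2 over Junb, and in 3 of 6 for Arc over Egr1, so the middle of the order lay within the spread between libraries. The transcript used for the length matters for Nr4a1, which was at 6.30 RPKM over the union of its exons and then lay below Arc and Egr1. Over the union of their exons Junb was at 4.19 RPKM, below 5, and Fosb at 0.249.

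**Figure D1:**
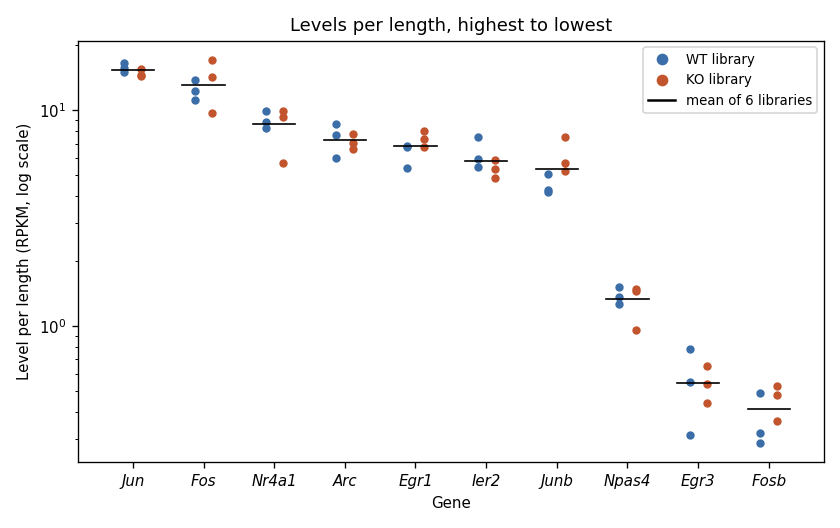
Level per length (RPKM, log axis) of each gene in the 3 WT (blue) and 3 KO (orange) libraries, with the mean of all 6 as a black line, ordered from highest to lowest. The upper 7 genes have means from 5.33 to 15.3 RPKM, and the libraries of neighbours in their order overlap. Those of Jun overlap only with those of Fos. Npas4, Egr3 and Fosb lie apart with means of 1.34 or less.

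None of the 10 immediate early genes passed the test of KO against WT. Adjusted p-values came from edgeR's quasi-likelihood fit of all 15519 genes (Benjamini-Hochberg method), with a threshold of 0.05. Of the 10, 0 were higher in KO and 0 lower, where 6.43% of all tested genes were higher, 10.2% lower and 16.7% either. At an unadjusted p under 0.05 there was 1 gene, Junb (32.5% of all tested genes). DESeq2 and limma-voom with sample quality weights also called 0 of the 10, each with Junb and Egr1 at an unadjusted p under 0.05. The median log2 fold change was −0.05 over the 10 and −0.01 over all tested genes, with 4 of the 10 positive. The groups did not overlap in 1 of the 10, against 39.4% of all tested genes.

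**Figure D2:**
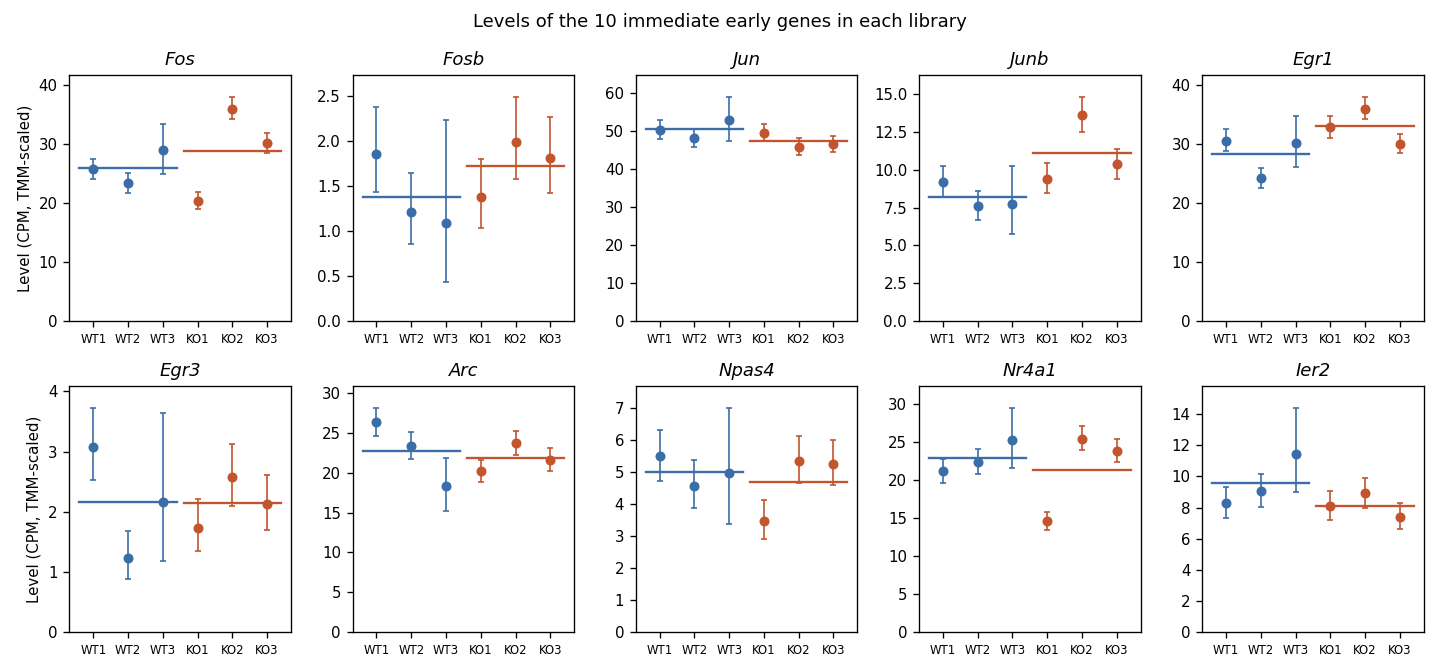
Level in CPM (reads per 1e+06 scaled reads, linear axes from 0) of each gene in every library, with bars for the 95% exact Poisson interval of the read count and lines for the mean of the 3 WT (blue) and 3 KO (orange) libraries. Only for Junb do all KO points lie above all WT points, and the points of Fos and Nr4a1 in KO replicate 1 lie well below those of the other KO libraries.

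The AP-1 genes, whose products pair through leucine zippers, differed among themselves. Fos (chromosome 12, 85473890 to 85477273, GRCm38) was at 25.8, 23.4 and 29.0 CPM in WT replicates 1 to 3 and at 20.5, 36.1 and 30.2 CPM in KO replicates 1 to 3. The KO libraries included both the lowest and the highest of the 6, so the groups overlapped. The means were 26.1 ± 2.80 and 28.9 ± 7.88 CPM (SD, n = 3 each), and the log2 fold change was 0.17 with a 95% interval of −0.31 to 0.65 (adjusted p = 0.608, edgeR's quasi-likelihood test). A single library set the sign: the value was 0.37 without KO replicate 1 (adjusted p = 0.0849) and −0.02 without KO replicate 2 (adjusted p = 0.961).

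Junb (chromosome 8, 84974484 to 84978718) was at 9.18, 7.58 and 7.75 CPM in WT and at 9.41, 13.6 and 10.3 CPM in KO. Every KO library was above every WT library, though KO replicate 1 exceeded WT replicate 1 by less than the counting error of either. The means were 8.17 ± 0.877 and 11.1 ± 2.19 CPM (SD, n = 3 each), and the log2 fold change was 0.43 with a 95% interval, not adjusted for the number of genes, of 0.09 to 0.76. The adjusted p was 0.0780 in edgeR and ranged from 0.0537 to 0.529 over the 16 other settings, so the gene did not pass in any. Without KO replicate 2, its highest library, the log2 fold change was 0.26 (adjusted p = 0.247).

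Jun (chromosome 4, 95049034 to 95052222) was the steadiest of the 10. Its levels were 50.3, 48.1 and 52.8 CPM in WT and 49.5, 45.8 and 46.6 CPM in KO. The highest library exceeded the lowest 1.15-fold, and the groups overlapped. The log2 fold change was −0.09 with a 95% interval of −0.23 to 0.06 (adjusted p = 0.407, edgeR), the narrowest interval of the 10. Fosb (chromosome 7, 19302696 to 19310051) was at 1.86, 1.21 and 1.08 CPM in WT and 1.37, 1.99 and 1.81 CPM in KO, from 317 reads in all. WT replicate 3 held 7 of them, which alone allows 0.436 to 2.24 CPM. The log2 fold change of 0.23 had an interval of −0.31 to 0.77 (adjusted p = 0.561, edgeR), wide at this depth.

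The zinc finger factors Egr1 and Egr3 carry early signals on to later transcription in neurons. Egr1 was at 30.6, 24.3 and 30.2 CPM in WT and at 33.0, 36.1 and 30.1 CPM in KO. The groups overlapped, with WT replicate 2 the lowest and KO replicate 2 the highest. The means were 28.4 ± 3.57 and 33.1 ± 2.98 CPM (SD, n = 3 each), and the log2 fold change was 0.23 with an interval of −7.8e-04 to 0.47 (adjusted p = 0.155, edgeR). The smallest adjusted p over the 16 other settings was 0.0501, with limma-voom and sample quality weights, and the largest 0.478. Egr3 (chromosome 14, 70077203 to 70082614) had the widest range, at 3.08, 1.24 and 2.17 CPM in WT and 1.74, 2.57 and 2.12 CPM in KO. All KO libraries lay between WT replicates 1 and 2, and the log2 fold change was −0.02 with an interval of −0.71 to 0.68 (adjusted p = 0.978). It was 0.56 without WT replicate 1 and −0.40 without WT replicate 2.

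Arc (chromosome 15, 74669083 to 74672570), the synaptic effector of the set, was at 26.3, 23.4 and 18.3 CPM in WT and at 20.2, 23.7 and 21.6 CPM in KO. The KO libraries lay inside the WT range, whose low end was WT replicate 3 with 118 reads. The log2 fold change was −0.09 with an interval of −0.35 to 0.16 (adjusted p = 0.618, edgeR). With the covariate for reads outside genes it was −0.43 (adjusted p = 0.0692, edgeR). It was −0.18 without WT replicate 3 (adjusted p = 0.141, edgeR) and 0.02 without WT replicate 1 (adjusted p = 0.926, edgeR). Npas4 (chromosome 19, 4984355 to 4990316), which responds to calcium entry more selectively than the others, was at 5.49, 4.58 and 4.96 CPM in WT and at 3.48, 5.35 and 5.26 CPM in KO. KO replicate 1 was the lowest of the 6 and the remaining libraries were close together. Its log2 fold change was −0.10 with an interval of −0.50 to 0.30 (adjusted p = 0.749), and 0.08 without KO replicate 1.

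Nr4a1 (chromosome 15, 101254269 to 101274795) was at 21.1, 22.4 and 25.3 CPM in WT and at 14.5, 25.4 and 23.8 CPM in KO. As with Fos, KO replicate 1 was the lowest library and KO replicate 2 the highest, here by a small margin. The log2 fold change was −0.09 with an interval of −0.57 to 0.40 (adjusted p = 0.811, edgeR), and it was 0.13 without KO replicate 1. Ier2 (chromosome 8, 84661331 to 84662852) was at 8.28, 9.04 and 11.5 CPM in WT and at 8.09, 8.91 and 7.40 CPM in KO. Its highest value came from WT replicate 3, where the gene had 74 reads. The log2 fold change was −0.18 with an interval of −0.47 to 0.11 (adjusted p = 0.372).

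**Figure D3:**
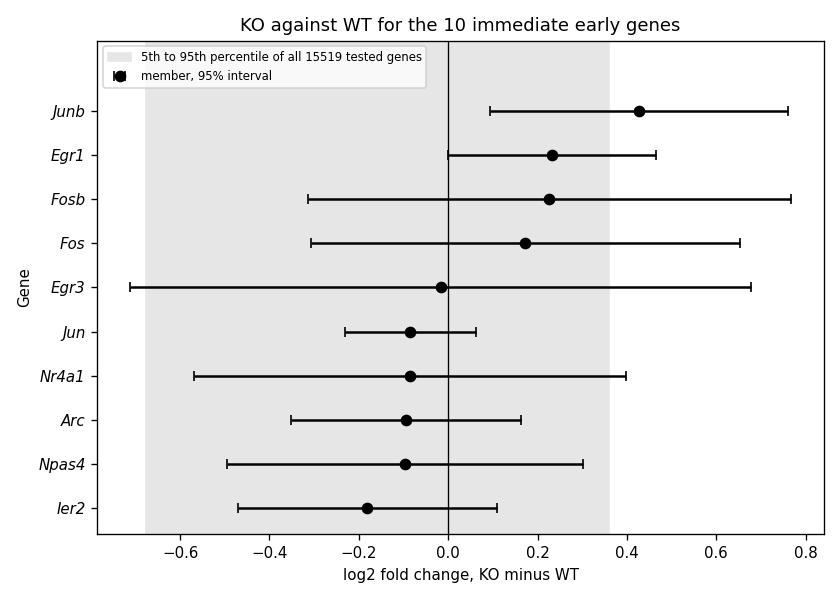
Log2 fold change of KO minus WT for each gene with its unadjusted 95% interval from edgeR's quasi-likelihood fit. The grey band spans the 5th to 95th percentile of the fold changes of all 15519 tested genes (−0.68 to 0.36). The intervals of 9 genes include 0, and that of Junb runs from 0.09 to 0.76.

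Libraries of the same genotype differed more in these genes than in a typical gene. The SD of log2 CPM within a genotype, pooled over WT and KO, had a median of 0.24 over the 10 genes and 0.13 over all tested genes, and 9 of the 10 were above the median of all genes, Jun being the exception at 0.06. In the KO libraries the median SD was 0.27 over the 10 and 0.09 over all genes. In WT the medians were 0.17 and 0.15. For all genes the WT spread included that of WT replicate 3. Without this library the pooled medians were 0.26 for the 10 and 0.09 for all genes.

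Spread falls as the level rises, so edgeR's biological coefficient of variation (BCV) of each gene was set beside the value the fit gives to genes of the same abundance. The BCV of Fos was 0.172 where the trend gave 0.0861. For Nr4a1 it was 0.174 against 0.0878, and for Egr3 0.243 against 0.131. Jun (0.0634 against 0.0804) and Ier2 (0.0973 against 0.102) lay below the trend, and the other 8 of the 10 lay above it, as did 27.7% of all tested genes. The pooled SD was 5.19 times what counting error alone gives for Fos and 4.89 times for Nr4a1, but 1.20 times for Fosb, whose spread was thus close to that of its few reads.

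**Figure D4:**
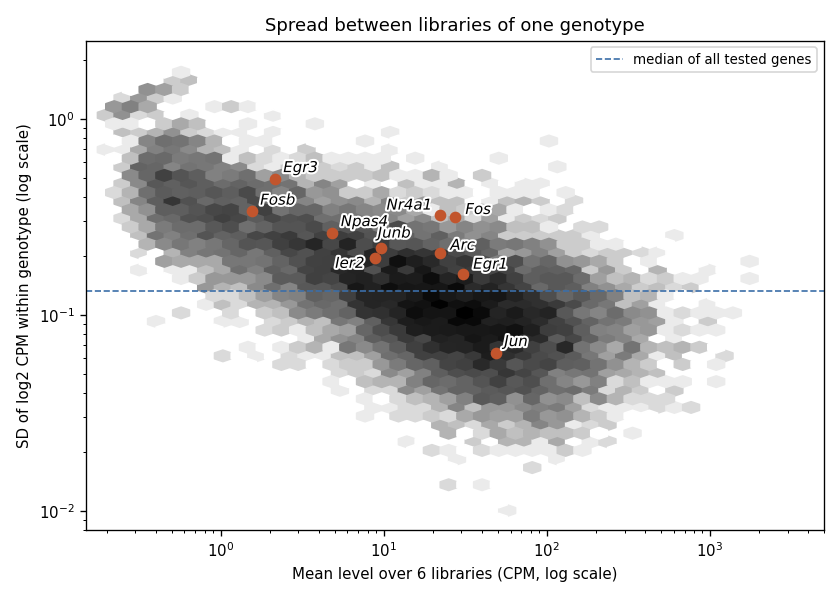
SD of log2 CPM within genotype against mean level for all 15519 tested genes (grey, darker where more genes lie) and for the 10 immediate early genes (orange), both axes logarithmic. Fos and Nr4a1 lie above the bulk of genes at their level, Jun lies below the median of all genes (dashed line), and Egr3 is highest at 0.49.

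Most of the genes moved together between the KO libraries. KO replicate 2 was the highest KO library for 9 of the 10 genes, where it was the highest for 34.7% of all tested genes. KO replicate 1 was the lowest for 7 of the 10, against 33.5% of all. The genes with both features were Fos, Fosb, Junb, Egr3, Arc, Npas4 and Nr4a1. Fos lay 0.46 below its KO mean on the log2 scale in KO replicate 1 and 0.36 above it in KO replicate 2, a 1.76-fold difference between these libraries, and Nr4a1 lay 0.50 below and 0.30 above, a 1.75-fold difference. Npas4 differed 1.54-fold, Egr3 1.48-fold, Fosb 1.45-fold, Junb 1.44-fold and Arc 1.17-fold between them. Jun had the opposite order, with KO replicate 1 the highest, at a 1.08-fold range. The 3 KO libraries had 32139351 to 33940607 reads on genes other than Rn45s. KO replicate 1 had the highest shares of unmapped (7.55%, against 6.62% and 6.43% in replicates 2 and 3) and multimapping reads (9.83%, against 8.84% and 9.18%). Rn45s took 1.28%, 1.67% and 1.45% of gene reads in KO replicates 1 to 3, the same order of libraries as for Fos and Nr4a1. The part of these shares in the levels was not tested.

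In WT the order was less shared. WT replicate 2 was the lowest WT library for 6 of the 10 genes (24.3% of all tested genes) and the highest for 0 (29.8%). WT replicate 1 was the highest for 6 (30.6% of all tested genes) and WT replicate 3 for 4, near its 39.6% of all. Egr3 differed 2.49-fold between WT replicates 1 and 2, from 106 and 40 reads. The summed level of the 10 genes was 182, 165 and 183 CPM in WT and 162, 200 and 179 CPM in KO, so that the KO libraries again included both extremes.

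**Figure D5:**
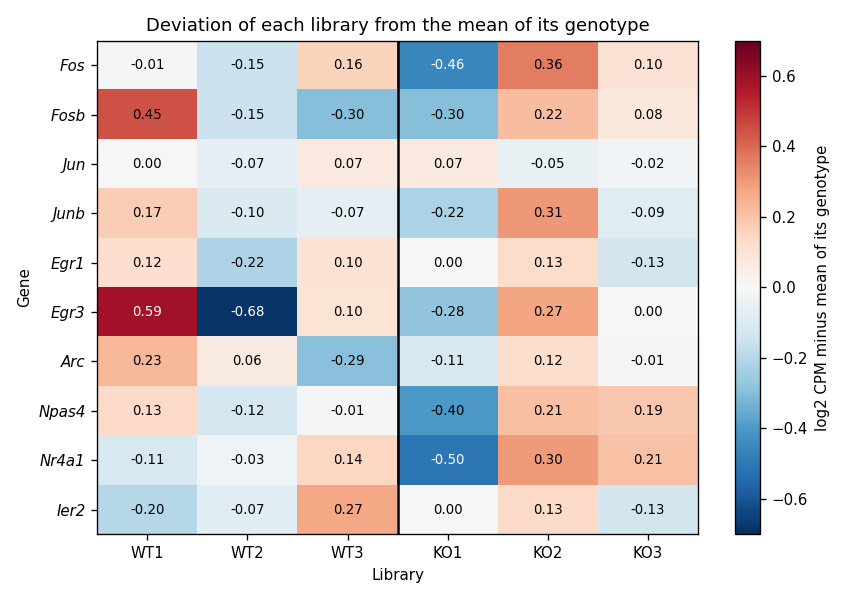
Log2 CPM of each gene in each library minus the mean of the 3 libraries of its genotype (red above, blue below, with the value printed in each cell). KO replicate 2 is above its group mean in 9 of 10 genes and KO replicate 1 below it in 9 of 10, Jun being the exception in both. In KO replicate 1 the values of Egr1 (−4.3e-04) and Ier2 (−0.0034) are close to the mean and print as 0.00.

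The average profile of the 10 genes over the 6 libraries was compared with that of each of 13939 other genes with at least 1 CPM on average, each centred on its own mean. The closest by root-mean-square difference were Irgm1, an interferon-induced GTPase (0.03 log2 units), Dapk1, a calcium and calmodulin dependent kinase (0.04), Dcc, the netrin receptor (0.05), Gpx3, a secreted glutathione peroxidase (0.05), and Prkar2b, a regulatory subunit of protein kinase A (0.05). For comparison, the members themselves lay between 0.13 (Npas4) and 0.29 (Egr3) from their own average. With 6 libraries and 13939 candidates, near matches are a description of these libraries only.

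Few other genes of the early response, listed with earlier results of these data known, passed the test. Of 18 tested transcription factors of the same class, 1 rose, 0 fell and 17 did not pass (median log2 fold change −0.09). At an unadjusted p under 0.05 there were 6 of the 18, against 32.5% of all tested genes. The gene that rose was Klf6, a Krüppel-like factor, from 34.7 ± 2.82 to 41.6 ± 1.18 CPM (SD, n = 3 each; log2 0.28, SE 0.07, adjusted p = 0.0315, edgeR). Its call was lost when any 1 of WT replicates 1 and 2 and KO replicates 1 to 3 was left out (adjusted p = 0.0583 to 0.132). Jund, the most abundant AP-1 gene by CPM among these lists, had a log2 fold change of 0.20 (adjusted p = 0.126), Nr4a3 −0.40 (0.152) and Egr2 0.07 (0.943, at 0.330 CPM on average). Fosl1 had 4 reads in all and was not tested.

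Of 27 effectors and feedback inhibitors of the early response, 0 passed in edgeR, 0 in DESeq2 and 2 in limma-voom with sample quality weights. In edgeR 4 were at an unadjusted p under 0.05, against 32.5% of all tested genes. Dusp1, a phosphatase that turns MAP kinases off, had a log2 fold change of 0.05, Btg2, an antiproliferative partner of mRNA deadenylation, 0.22, and Zfp36, which binds AU-rich mRNAs such as Fos and speeds their decay, −0.13. Of 16 delayed activity genes, 0 rose and 1 fell in edgeR, with 8 at an unadjusted p under 0.05 (32.5% of all tested genes). DESeq2 called 1 higher and 1 lower and limma-voom 3 and 4; without WT replicate 1 edgeR called 2 higher, and without WT replicate 3 it called 4 lower. The gene that fell was Sorcs3, a sorting receptor of neurons, from 33.8 ± 1.33 to 27.7 ± 0.882 CPM (SD, n = 3 each, log2 −0.29, SE 0.07, adjusted p = 0.0210, edgeR). Its call was lost when any 1 of WT replicate 1 and KO replicates 1 to 3 was left out (adjusted p = 0.0603 to 0.101). The call was also lost with the covariate for reads outside genes (0.109), where the log2 value was still −0.29. Bdnf, the neurotrophin induced by activity, was at 10.8 ± 0.0729 and 9.89 ± 0.0927 CPM (adjusted p = 0.362). Over these 3 lists 2 of 61 genes passed in edgeR (3.28%), against 16.7% of all tested genes. The 2 became 3 with DESeq2, 10 with limma-voom, 6 without WT replicate 3, 3 without WT replicate 1, 1 without WT replicate 2 and 0 without any 1 of the KO replicates.

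The median pooled SD of these 61 genes was slightly above that of all tested genes, at 0.16 against 0.13. The SD exceeded the median of all genes for 10 of the 18 transcription factors, 16 of the 27 effectors and 9 of the 16 delayed genes. No allowance for level was made for these 61 genes. KO replicate 1 was the lowest KO library for 47.5% of them and KO replicate 2 the highest for 44.3%, against 33.5% and 34.7% of all tested genes. The lists differed in this: KO replicate 1 was the lowest for 9 of the 18 transcription factors and 16 of the 27 effectors, but for 4 of the 16 delayed genes.

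Genes that act upstream of the immediate early genes or on their mRNAs were listed as well. Of 32 upstream kinases, transcription factors and their cofactors, 5 rose, 1 fell and 26 did not pass (18.8% called against 16.7% of all, median 0.06). Crtc2, a coactivator of CREB, fell from 23.3 ± 2.77 to 16.4 ± 1.08 CPM (SD, n = 3 each; log2 −0.48, SE 0.10, adjusted p = 0.00942, edgeR), and lost its call without KO replicate 3 (adjusted p = 0.0599). Atf2, a partner of Jun (0.23, SE 0.06, adjusted p = 0.0222), and Mef2c (0.32, SE 0.08, adjusted p = 0.0229) rose in edgeR, and each lost its call without WT replicate 2 or any 1 of the KO replicates, Atf2 also without WT replicate 1. Of 26 factors that act on AU-rich mRNAs and their decay, 2 rose, 5 fell and 19 did not pass (26.9% called; median −0.03). Tia1, a translational silencer that binds AU-rich elements, fell from 73.7 ± 5.30 to 34.8 ± 1.91 CPM (log2 −1.07, SE 0.07, adjusted p = 2.26e-05), its relative Tial1 from 109 ± 5.18 to 72.9 ± 2.47 CPM (−0.57, SE 0.06), and the exonuclease Xrn1 from 43.1 ± 4.68 to 26.9 ± 0.290 CPM (−0.66, SE 0.08). Over both lists and the 3 above, 8 of 117 genes were higher and 7 lower (6.84% and 5.98%, against 6.43% and 10.2% of all tested genes). The 8 became 0 without WT replicate 2 or any 1 of KO replicates 1 to 3, and the 7 became 3 without KO replicate 3. Over all tested genes, the 998 called higher became 408 without WT replicate 2. They became 356, 295 and 245 without KO replicates 1 to 3. The 1587 called lower became 796 without KO replicate 3. Tia1, Tial1 and Xrn1 passed in all 16 alternatives, including the fit with the covariate for reads outside genes. In that fit Crtc2 (log2 −0.27, adjusted p = 0.213), Atf2 (0.22, 0.0998) and Mef2c (0.24, 0.238) did not pass.

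Markers of stress and of other cell types that express immediate early genes are given as measured. In edgeR 16.7% of all tested genes were called in either direction, 6.43% higher and 10.2% lower. The share called was 28.6% of the stress genes, 91.7% of endothelium and mural cell genes and 75% of meningeal fibroblast genes. It was 30% for astrocytes and Bergmann glia, 16.7% for Purkinje cells, 10% for microglia and 8.33% for granule neurons. Of 14 heat shock and dissection stress genes, 1 rose (Dnajb1, 0.23, not without any 1 of the WT replicates 1 and 2 and KO replicates 1 to 3) and 3 fell (Hsph1 at −0.37, Hspa1a at −0.81 and Hsp90aa1 at −0.23), with a summed level of 2482 to 2725 CPM in WT and 2347 to 2439 in KO. Hsph1 did not pass without KO replicate 2 or 3, nor Hspa1a without WT replicate 1 or KO replicate 1 or 3, nor Hsp90aa1 without WT replicate 2 or any 1 of the KO replicates. With the covariate for reads outside genes 0 of the 14 passed; the log2 values were then 0.22 for Dnajb1, −0.33 for Hsph1, −0.88 for Hspa1a and −0.055 for Hsp90aa1. KO replicate 1 was the lowest KO library for 2 of these 14. Of 12 genes of endothelium and mural cells, 11 fell and 0 rose (median −0.50), with a summed level of 303 to 343 CPM in WT and 221 to 227 in KO, and of 8 meningeal fibroblast genes 6 fell. The 11 became 6 without KO replicate 3 and 3 with the covariate, and the 6 became 3 without WT replicate 2 or any 1 of the KO replicates and 2 with the covariate. Of 10 microglia genes 1 rose (Cx3cr1, 0.51), of 12 granule neuron genes 1 fell (Gabra6, −0.66), of 12 Purkinje cell genes 2 rose (Dner and Calb1), of 10 astrocyte and Bergmann glia genes 2 rose and 1 fell, and of 10 oligodendrocyte and 6 choroid plexus genes 0 passed in edgeR (5 and 2 at an unadjusted p under 0.05, 5 and 0 called by DESeq2, 3 and 1 by limma-voom). With the covariate, 0 genes of the microglia, granule neuron, Purkinje cell and astrocyte lists passed in the direction given, and the 1 granule neuron gene became 0 without WT replicate 3 or KO replicate 3 and 5 without WT replicate 1 or KO replicate 1. The 12 granule neuron genes had a median log2 fold change of −0.32, against −0.01 over all tested genes. In edgeR 7 of them were at an unadjusted p under 0.05, against 32.5% of all tested genes. DESeq2 called 4 of them lower and limma-voom 2. Their summed level was 2259 to 2877 CPM in WT and 1780 to 2461 in KO. The 2 Purkinje cell genes became 1 without KO replicate 1 or 3 and 3 without WT replicate 1. Of the astrocyte genes, 0 were higher without WT replicate 2 or KO replicate 1 or 3 and 1 without WT replicate 1 or KO replicate 2, and 0 were lower without WT replicate 2 or KO replicate 2 or 3. Over the 3 KO libraries, the highest summed level exceeded the lowest 1.38-fold for granule neurons, 1.23-fold for Purkinje cells, 1.22-fold for choroid plexus and 1.03-fold for vessels, beside 1.23-fold for the 10 immediate early genes. KO replicate 1 was the lowest KO library for 0 of the 12 granule neuron and 0 of the 12 Purkinje cell genes. The 1 blood gene that was tested differed 1.72-fold. The part of these markers in the values of the immediate early genes was not tested.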

How the data were processed

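The 6 RNA-seq libraries (3 WT, 3 KO) were analysed from raw counts of reads per gene. The authors trimmed reads with Trimmomatic and aligned and counted them with STAR on mm10, per the submitters' processing notes. The annotation, the versions of both tools and the strand setting of the kit were not given in the sources used here. The deposited counts of the strand with most reads were used (the ratio to the other strand was 47.6 to 128), and library sizes exclude the 4 summary lines. After edgeR's filterByExpr (8892 genes removed, 15519 kept) and TMM scaling, genotypes were tested with edgeR's glmQLFit and glmQLFTest (edgeR 4.0.16, limma 3.58.1, DESeq2 1.42.0, R 4.3.3), p-values being adjusted by the Benjamini-Hochberg method across the whole table and called under 0.05. Standard errors are the absolute log2 fold change over the square root of F. Log2 CPM used a prior count of 2. Lengths and positions came from GENCODE M21 (GRCm38, the assembly of mm10). Intervals of counts are exact Poisson at 95% and cover counting error only. The members, lists, tests and alternatives were chosen with earlier results of these data known. On each list, up to 3 called genes with the smallest p are named; others were chosen after their values were seen. Alternatives were 2 further tools, 2 scalings, 2 filters, strand-blind counts, removal of Rn45s, a replicate block, a covariate for reads outside genes, and each library left out.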

Additional observations from a re-analysis of the deposited data

How the results depend on the processing

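Under 16 alternatives, 0 of the 10 immediate early genes were called higher and 0 lower, also without any 1 library. Genes called higher over the whole table numbered 998, and 1725 with limma-voom and sample quality weights, 252 with the replicate block, 561 with the covariate for reads outside genes and 245 to 1623 without 1 library; those called lower numbered 1587, and 821, 861 and 796 to 2096 with the block, the covariate and without 1 library. On the 5 lists of related genes the 8 higher became 15 with limma-voom, 5 with upper quartile scaling, 0 with the replicate block, 2 with the covariate and 0 to 9 without 1 library, and the 7 lower became 12 with limma-voom and 3 to 10 without 1 library. The labels do not say that the replicate numbers pair the libraries. Deviations of same-numbered libraries from their group means correlated at −0.18, −0.14 and −0.10 across genes. As these deviations are centred within each genotype, the correlations cannot settle whether the libraries were paired. Without scaling of library totals the median SD of the 10 genes was 0.68, where that of all genes was 0.67. Of 160 values of the 10 genes under alternatives, 14 had the other sign, none past the threshold: with the covariate Fosb at −0.12, Jun at 0.0012, Nr4a1 at 0.071 and Ier2 at 0.12; Egr3 at 0.0017 with DESeq2, 0.23 with limma-voom and 0.041 with the replicate block; and without 1 library Fos (−0.019 to 0.37), Egr3 (−0.40 to 0.56), Arc (−0.18 to 0.021), Npas4 (−0.20 to 0.082) and Nr4a1 (−0.23 to 0.13). The cause was not tested. Depth limits Fosb and Egr3 most, with 317 and 417 reads over all libraries.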

Other observations

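Reads on the strand opposite the immediate early genes, which enter only the alternative that counts without regard to strand, were few. They made up 0.233% (Egr1; 95% exact binomial interval 0.128% to 0.391%) to 1.25% (Fosb; 0.341% to 3.16%) of the reads on either strand of each gene, summed over the 6 libraries. Only Fosb and Junb (1.12%) exceeded 1%. Per library, the share over the 10 genes was 0.460%, 0.485% and 0.0846% for the WT replicates in order of number, and 0.542%, 0.616% and 0.495% for those of KO. In none of the 10 genes did all KO libraries exceed all WT libraries in scaled opposite-strand reads.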
